A study of Mus musculus with 12 samples.

Results

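Regions of open chromatin that lie inside introns and away from start sites were examined in mouse regulatory T cells (Treg) with and without Ikaros. A region was taken as intronic when it lay wholly within introns of protein-coding genes, with no overlap of an exon, and more than 5 kb from any protein-coding start site of the mm9 annotation. Of the 118680 regions, 33407 met these criteria of position. Of these, 17172 also had at least 3.6 CPM (counts of a region scaled to a common library total) in at least 3 of the 12 libraries and are the intronic regions described here, 24.5% of the 69957 regions of any position that passed the same filter. The other 16235 fell below that level and were not tested.

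ATAC-seq maps accessible DNA through the cuts that the transposase Tn5 makes in it. The cells were YFP+ Treg from spleen, sorted from B6 mice of the strains Foxp3-YFP-Cre (WT) or Ikzf1-fl-Foxp3-YFP-Cre (Ikzf1-cko), so that the WT controls carry the Cre and reporter as well and Ikzf1 is deleted in cells that express or have expressed Foxp3. Cells of each genotype were either kept ex vivo, without stimulation, or stimulated for 4 hr with antibodies to CD3 and CD28 bound to the plate. By the methods the sorted cells were divided between both states, so ex vivo and stimulated libraries of a genotype may share cells of 1 sort, and the labels do not say which. Each of the resulting groups, WT ex vivo, Ikzf1-cko ex vivo, WT stimulated and Ikzf1-cko stimulated, had 3 libraries. The methods call the replicates biological, but the labels give neither the age of the mice nor whether a library came from 1 animal, so the tests measure the spread between libraries, which may be partly technical.

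Open regions within introns often act as enhancers, stretches of DNA to which transcription factors bind and from which they influence a promoter at a distance, either that of the gene around them or that of a neighbour. Such regions differ more between cell types and states than promoters do. Ikaros, the zinc finger protein encoded by Ikzf1, binds sequences with the core GGGAA and works with chromatin remodelling and deacetylase complexes. Stimulation through the T cell receptor and CD28 activates AP-1, NF-kB and NFAT factors, whose motifs are common in enhancers of T cells.

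To show what such regions look like, the central 300 bases of 9 of them are printed below, each on the plus strand of mm9. They were chosen among the largest changes of each comparison, and the results return to each of them. Capitals mark GGGAA or its reverse complement TTCCC, the Ikaros core, and TGACTCA or its reverse complement TGAGTCA, the AP-1 motif. The windows are chr15:99642653-99642952 in intron 4 of Lima1 and chr8:117393266-117393565 in intron 8 of Wwox, which changed with genotype ex vivo. Those at chr8:60068083-60068382 in intron 1 of Galnt7, chr2:60208441-60208740 in intron 2 of Ly75, chr5:111023573-111023872 in intron 4 of Galnt9 and chr1:66696619-66696918 in intron 47 of Unc80 are the 4 named rises in stimulated Ikzf1-cko Treg. The window chr5:27245529-27245828 lies in intron 1 of Dpp6, chr4:154543023-154543322 in intron 3 of Ski and chr1:181500701-181501000 in intron 1 of Cnst, which changed with stimulation.
Lima1: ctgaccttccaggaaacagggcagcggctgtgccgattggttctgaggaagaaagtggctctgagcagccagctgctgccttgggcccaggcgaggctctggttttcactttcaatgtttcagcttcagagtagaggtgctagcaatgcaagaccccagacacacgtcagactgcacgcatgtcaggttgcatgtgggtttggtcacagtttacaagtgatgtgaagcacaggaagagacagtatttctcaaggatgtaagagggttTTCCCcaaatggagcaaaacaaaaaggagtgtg
Wwox: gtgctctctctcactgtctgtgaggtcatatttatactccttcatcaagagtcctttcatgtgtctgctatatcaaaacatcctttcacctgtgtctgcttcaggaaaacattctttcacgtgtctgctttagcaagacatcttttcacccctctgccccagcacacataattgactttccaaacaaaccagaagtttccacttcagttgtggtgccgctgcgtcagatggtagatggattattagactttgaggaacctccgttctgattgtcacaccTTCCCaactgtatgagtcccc
Galnt7: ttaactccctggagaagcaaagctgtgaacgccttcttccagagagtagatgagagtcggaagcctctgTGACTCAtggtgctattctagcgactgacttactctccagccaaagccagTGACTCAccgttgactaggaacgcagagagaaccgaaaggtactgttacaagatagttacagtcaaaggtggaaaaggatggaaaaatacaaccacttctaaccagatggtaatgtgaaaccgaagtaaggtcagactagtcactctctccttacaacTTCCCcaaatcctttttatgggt
Ly75: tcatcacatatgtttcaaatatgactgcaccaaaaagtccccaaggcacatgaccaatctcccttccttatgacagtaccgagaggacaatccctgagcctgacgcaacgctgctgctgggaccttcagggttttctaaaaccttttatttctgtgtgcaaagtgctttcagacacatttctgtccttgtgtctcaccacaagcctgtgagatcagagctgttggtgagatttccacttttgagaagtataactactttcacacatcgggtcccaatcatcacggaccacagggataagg
Galnt9: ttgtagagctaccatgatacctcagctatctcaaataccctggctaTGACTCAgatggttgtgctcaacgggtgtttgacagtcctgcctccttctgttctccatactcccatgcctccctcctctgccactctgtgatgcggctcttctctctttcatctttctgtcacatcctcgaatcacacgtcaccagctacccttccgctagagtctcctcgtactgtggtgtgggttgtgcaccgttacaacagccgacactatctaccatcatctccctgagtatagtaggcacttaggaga
Unc80: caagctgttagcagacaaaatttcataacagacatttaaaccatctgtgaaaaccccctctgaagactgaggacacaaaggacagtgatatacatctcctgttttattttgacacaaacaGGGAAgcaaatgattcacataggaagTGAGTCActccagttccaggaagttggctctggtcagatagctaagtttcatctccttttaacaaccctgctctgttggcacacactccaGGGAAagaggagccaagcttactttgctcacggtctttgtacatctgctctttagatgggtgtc
Dpp6: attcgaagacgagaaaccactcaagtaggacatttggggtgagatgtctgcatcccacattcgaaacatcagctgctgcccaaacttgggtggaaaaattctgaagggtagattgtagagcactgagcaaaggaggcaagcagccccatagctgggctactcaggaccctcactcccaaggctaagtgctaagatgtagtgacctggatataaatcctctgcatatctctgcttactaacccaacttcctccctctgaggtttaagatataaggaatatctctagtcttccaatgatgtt
Ski: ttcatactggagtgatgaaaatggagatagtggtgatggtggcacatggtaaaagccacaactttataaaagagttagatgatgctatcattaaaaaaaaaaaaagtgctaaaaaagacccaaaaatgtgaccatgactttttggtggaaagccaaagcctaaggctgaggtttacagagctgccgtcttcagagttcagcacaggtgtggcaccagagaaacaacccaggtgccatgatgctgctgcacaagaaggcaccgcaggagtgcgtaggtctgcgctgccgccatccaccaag
Cnst: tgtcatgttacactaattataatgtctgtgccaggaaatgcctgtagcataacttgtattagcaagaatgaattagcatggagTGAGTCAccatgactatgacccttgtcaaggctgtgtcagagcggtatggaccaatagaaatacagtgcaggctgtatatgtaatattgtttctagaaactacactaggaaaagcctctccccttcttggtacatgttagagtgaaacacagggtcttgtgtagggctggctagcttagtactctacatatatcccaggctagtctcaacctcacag
All 9 windows had no other place in the genome that matched over at least 100 bases at 95% identity or more.

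The printed windows differ in the motifs they hold. Of the 4 named rises in stimulated Ikzf1-cko Treg, Galnt7 holds TGACTCA 2 times, Galnt9 and Unc80 hold it once and Ly75 does not hold it. Cnst holds it once, and Lima1, which was also called higher in stimulated Ikzf1-cko Treg, does not, nor do Wwox, Dpp6 and Ski. It was in 11 of the 46 named windows searched. GGGAA is in Lima1, Wwox and Galnt7 once each and in Unc80 2 times. Letters of this kind are common by themselves and mark no bound site.

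The 17172 intronic regions lay in 4498 genes. Of these genes, 1881 held 1 region and 420 held at least 10. The first intron held 30.9% of the regions and the second intron 17.9%. The median region was 553 bases long, lay in an intron of 36 kb, 7.73 kb from the nearest exon and 24.8 kb from the nearest start site, which was that of the host gene for 84.2%. A further region of the set lay within 5 kb of 47.4% of them, so neighbouring regions are not independent of each other, and 299 lay inside more than 1 gene. The median GC content was 47.9%, close to the 49.1% of the 25341 intergenic regions that were also more than 5 kb from a start site. It was below the 60.2% of the 13211 regions over a start site. CpG per 100 bases stood at 1.08, against 1.12 in intergenic regions and 6.31 over start sites. The intergenic regions lay farther out, at a median of 50900 bases from a start site.

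TGACTCA was in the central 200 bases of 10.6% of the intronic regions, on either strand, against 8.67% of the intergenic regions and 2.25% of those over a start site. The Ets motif CAGGAAG was in 17.1%, 14.0% and 8.16%, and the Runx motif TGTGGTT in 8.82%, 7.58% and 2.20%. GGGAA was in 43.6%, 45.5% and 46.8%, which shows how often so short a core occurs. The forkhead motif GTAAACA was in 3.29% of the intronic regions, the Tcf/Lef letters CTTTGAT or CTTTGTT in 8.83%, the T-box letters TCACACC in 3.87%, the CTCF core AGGGGGC or AGGTGGC in 9.74%, the NF-kB motif GGANTTTCC in 1.33% and TGACGTCA, the cAMP response element, in 0.443%.

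At the edge of the rule, the third-highest CPM was 3.6061 just inside the limit, in regions of Vps13b, Tbc1d14 and Trio, and 3.5901 just outside it, in regions of Tceal3, Ttc7 and Kank4. The members nearest to a start site lay 5001 bases away in Dnajc17 and Zfp787 and 5002 bases away in Dennd1b.

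The libraries differed in depth and in how evenly their reads were spread. The reads counted per library ranged from 4808916 to 8596567 in WT and from 9221901 to 15355521 in Ikzf1-cko, so that genotype and depth cannot be told apart. Replicates correlated over the intronic regions with Spearman coefficients of 0.904 to 0.975 in the other groups and of 0.776 to 0.827 in stimulated WT. Start regions of 8 of 8 T cell and 4 of 5 Treg marker genes were tested, Ikzf2 being the one without an assigned start region. Those of B cell markers numbered 2 of 9, with a summed level of 17.1 to 20 FPKM in WT ex vivo, 12.2 to 16.8 in Ikzf1-cko ex vivo, 21.4 to 26.5 in stimulated WT and 17.9 to 20.4 in stimulated Ikzf1-cko, none of them over Cd79a or Ms4a1. The 7 intronic regions of B cell markers summed to 69.5 to 80.2, 51.9 to 65.8, 68.8 to 86.2 and 49.2 to 55.7 FPKM in the same order of groups. Myeloid markers had 2 of 8 start regions tested, at 20.3 to 21.5, 25.8 to 28.7, 19.5 to 20.1 and 24.8 to 26.5 FPKM. NK and cytotoxic markers had 1 of 5, that of the perforin gene Prf1. It had 7.24 to 8.67, 3.54 to 3.85, 8.8 to 9.56 and 4.25 to 5.38 FPKM. Erythroid markers had 0 of 5. The paper counts perforin among factors required for Treg function and down-regulated in Ikzf1-cko. In each state the genotypes did not overlap in any of these sums, with Cebpa and Cd14 (myeloid) higher and B cell markers and Prf1 lower in Ikzf1-cko. The Treg start regions did not overlap either, at 89.3 to 98.5, 106 to 109, 68.0 to 85.3 and 92.9 to 106 FPKM in the same order. Treg intronic sums and both T cell sums overlapped. The part of other cell types in the results was not tested.

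Stimulated WT libraries also placed more reads outside the tested regions. Intronic regions below the filter took 4.55% ± 0.312 (SD, n = 3) of the counted reads in stimulated WT, against 2.98% ± 0.328 in WT ex vivo, 2.38% ± 0.203 in Ikzf1-cko ex vivo and 2.78% ± 0.232 in stimulated Ikzf1-cko. The lowest stimulated WT library lay above every other library. The filter carries this over: 2503 of the intronic regions (14.6%) reached 3.6 CPM in no library outside stimulated WT, against 58, 16 and 23 that did so in WT ex vivo, Ikzf1-cko ex vivo or stimulated Ikzf1-cko alone. More regions than these 2503 needed stimulated WT to pass, since others reached 3.6 CPM in fewer than 3 libraries outside it. The number that pass without stimulated WT is given with the ex vivo comparison. Regions that passed through 1 group alone had to differ from the others, so the counts of calls over all intronic regions are also given for the 11682 intronic regions (68.0%) with a mean of at least 3.6 CPM over the 12 libraries and for the 6701 (39.0%) with 3.6 CPM in all 12. The mean filter removes such regions only in part: those that reached 3.6 CPM in stimulated WT alone had means of up to 4.45 CPM.

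The tested intronic regions took between 11.76% and 13.4% of the counted reads of a library. The share was 13.4% ± 0.0712 in WT ex vivo, 12.8% ± 0.323 in Ikzf1-cko ex vivo, 12.2% ± 0.115 in stimulated WT and 11.9% ± 0.123 in stimulated Ikzf1-cko (SD, n = 3 each). Every stimulated library lay below every ex vivo library. Stimulated minus ex vivo gave a mean difference of -1.09 percentage points within genotypes, and Ikzf1-cko minus WT gave -0.411 within states (two-sided exact permutation test over 400 arrangements, p = 0.005 for each, the smallest it can give, and 0.005 adjusted over the 2 tests). The genotype difference turned with the set of regions: it was 0.363 (exact permutation p = 0.155) over regions with a mean of at least 3.6 CPM and 0.719 (p = 0.035) over those with 3.6 CPM in all 12 libraries, where stimulation gave -1.7 and -1.75. Without any filter, stimulation gave -0.104 (exact permutation p = 0.675).

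**Figure D1:**
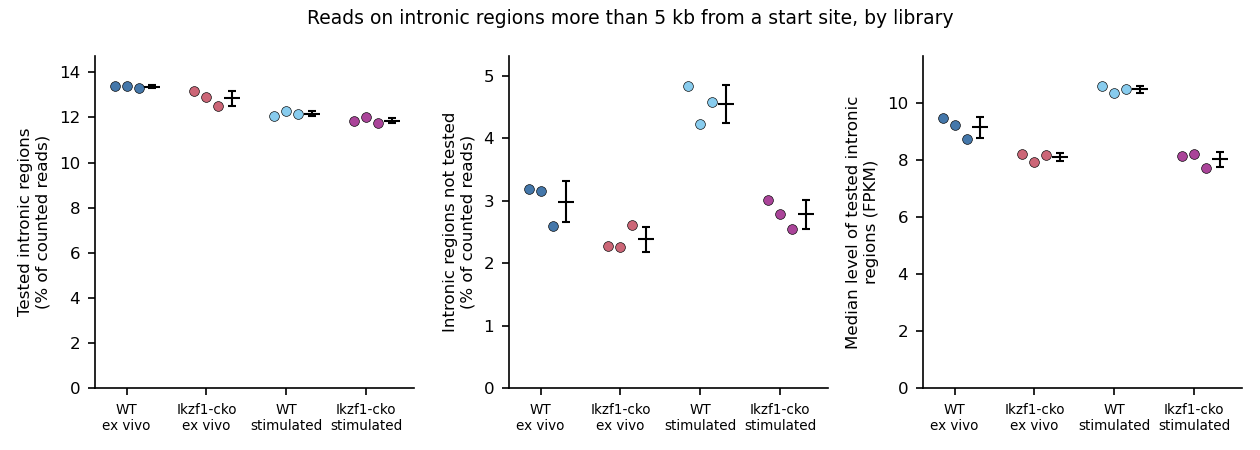
Share of counted reads on the tested intronic regions (left), share on intronic regions below the filter (middle) and median level of the tested regions in FPKM (right) in each library, with bars for the mean ± SD of 3 libraries per group. Stimulated WT libraries are highest in the middle and right panels, with a mean of 4.55% of reads on regions below the filter and a median of 10.5 FPKM.

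Levels are given as FPKM, the CPM of a region divided by its length in kilobases, which allows regions of different length to be compared. The median intronic region stood at 9.14 ± 0.37 FPKM in WT ex vivo, 8.11 ± 0.146 in Ikzf1-cko ex vivo, 10.5 ± 0.122 in stimulated WT and 8.02 ± 0.269 in stimulated Ikzf1-cko. The spread among regions was narrowest in stimulated WT, where the 10th percentile was 6.28 FPKM and the 90th was 17.9. In the other groups the 10th percentile was 2.69 to 4.10 and the 90th was 20 to 23.1. The filter bears on the lower end, since regions that passed through stimulated WT alone are high there by construction. Over the regions with 3.6 CPM in all 12 libraries the 10th percentile was 7.01 FPKM in stimulated WT and 6.75 to 7.2 in the other groups, the median 11.4 against 12.6 to 13.8, and the 90th percentile 21.9 against 29.0 to 34.5.

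The most accessible intronic regions reached levels near 150 FPKM, many times the median, and most of them were lower in stimulated WT. The strongest on average, in intron 7 of the predicted gene Gm17384 (chr5:63249396-63250138), had 145, 136 and 157 FPKM in WT ex vivo, 155, 138 and 113 in Ikzf1-cko ex vivo, 69.4, 90.7 and 76.4 in stimulated WT and 140, 145 and 133 in stimulated Ikzf1-cko. All stimulated WT libraries lay below all others. The same was true of regions in Abl2, a tyrosine kinase gene, Trio, an exchange factor gene, Dpp4, which encodes the T cell surface peptidase CD26, Xylt1, Diap3 and Cblb, which encodes a ubiquitin ligase that restrains T cell receptor signalling. The Cblb region had 103, 101 and 105 FPKM in WT ex vivo, 52.3, 65.5 and 55.7 in stimulated WT and 90.2, 84.1 and 94.0 in stimulated Ikzf1-cko. The region in Mrps27, a gene of the mitochondrial ribosome, had 72.9 to 77.4 FPKM in stimulated WT and 81.9 to 118 elsewhere.

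Cdk8, which encodes a kinase of the Mediator complex, and Chl1, an adhesion molecule gene, held the strong regions with the opposite order. The region in intron 2 of Cdk8 had 98.7, 66.6 and 45.4 FPKM in WT ex vivo, 39.5, 36.8 and 36.1 in Ikzf1-cko ex vivo, 155, 163 and 150 in stimulated WT and 108, 82.4 and 77.5 in stimulated Ikzf1-cko. Stimulated libraries lay above ex vivo libraries within each genotype, and Ikzf1-cko below WT within each state. Its rise with stimulation was 1.20 ± 0.14 (log2 fold change ± SE) in WT and 1.24 ± 0.14 in Ikzf1-cko (FDR 1.2e-07 for both). The window in Chl1 had 8 other places in the genome that matched over at least 100 bases.

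Some strong regions had nearly the same level in all groups. Regions in Fgfr2, Pitpnc1, which encodes a phosphatidylinositol transfer protein, and Dock2, which encodes an activator of Rac in lymphocytes, had the smallest ratio of highest to lowest group mean among the regions in the top 10% by level. The Fgfr2 region was assigned through an annotated intron of 2960 kb. It lay 345 kb from the nearest exon and its nearest start site was that of Fam53b, so its host gene is uncertain. The Dock2 region, in its first intron, had 19.7 to 24.2 FPKM in WT ex vivo, 21.1 to 25.6 in Ikzf1-cko ex vivo, 19.2 to 25.0 in stimulated WT and 22.7 to 24.2 in stimulated Ikzf1-cko, and its log2 fold changes lay between -0.04 and 0.06. The groups overlapped in every comparison.

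A region was called when the quasi-likelihood test of edgeR, fitted over all 69957 tested regions and adjusted after Benjamini and Hochberg, gave an FDR under 0.05 and the fold change was over 2, an absolute log2 fold change above 1. A lower level in these data can be a smaller share of cells with the region open or less accessibility per cell, which cannot be told apart.

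The first comparison asked how loss of Ikaros changed accessibility in Treg taken directly ex vivo. Among the intronic regions 143 (0.833%) were called higher and 755 (4.4%) lower in Ikzf1-cko, against 0.588% and 4.04% of all tested regions. Restricted to a mean of at least 3.6 CPM, the counts were 125 higher and 308 lower, or 1.07% and 2.64% against a background of 0.663% and 2.15%. Of the 6701 regions with 3.6 CPM in all 12 libraries 57 were higher and 50 lower, where 0.476% and 0.514% of all such regions were called. Lower calls outnumbered higher calls among weak regions, where they made up 9.16% of the weakest quintile by mean CPM against 0.494% of the strongest. The split depended on the scaling, with 240 higher and 491 lower after TMM normalization, 215 and 497 in DESeq2 and 292 and 223 after loess normalization against abundance, which levels weak with strong regions. Without Ikzf1-cko ex vivo replicate 3 the counts were 175 higher and 2139 lower, 2314 in all, and with the 3 stimulated WT libraries left out of the filter and the fit they were 142 higher and 369 lower of 12657.

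The largest rise ex vivo was in intron 4 of Lima1 (chr15:99642553-99643051), whose product cross-links actin filaments. It had 3.86, 4.25 and 3.73 FPKM in WT ex vivo, 21.1, 18.6 and 18.2 in Ikzf1-cko ex vivo, 6.96, 6.59 and 7.08 in stimulated WT and 12.6, 16.1 and 16.1 in stimulated Ikzf1-cko. Ikzf1-cko lay above WT in both states without overlap. The log2 fold change was 2.29 ± 0.20 ex vivo (FDR 2e-09) and 1.12 ± 0.20 after stimulation (FDR 4.7e-05).

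Celf2, an RNA-binding protein gene that acts in splicing in T cells, held the next region and was the host gene with most higher calls. Its region at chr2:6611217-6611616 in intron 2 had 5.29, 5.63 and 9.02 FPKM in WT ex vivo, 26.7, 27.8 and 25.9 in Ikzf1-cko ex vivo, 7.44, 10.5 and 3.12 in stimulated WT and 14.1, 13.0 and 19.2 in stimulated Ikzf1-cko. The genotypes did not overlap in either state, and the log2 fold change was 1.96 ± 0.22 ex vivo (FDR 1.9e-07) and 1.11 ± 0.26 after stimulation (FDR 0.0008). Of the 18 Celf2 regions with a mean of at least 3.6 CPM, 5 were called higher ex vivo and 0 lower. The 2 other named rises had the same order of genotypes in both states: N4bp2l2 (log2 fold change 1.86 ex vivo and 1.41 stimulated) and Arhgap10, a GTPase-activating protein gene (1.75 and 1.12).

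The largest fall ex vivo was in the last intron of Wwox (chr8:117393052-117393779), an oxidoreductase and tumour suppressor gene that spans a fragile site. It had 7.93, 8.01 and 5.43 FPKM in WT ex vivo, 1.7, 1.6 and 2.58 in Ikzf1-cko ex vivo, 7.04, 7.78 and 7.43 in stimulated WT and 3.72, 4.19 and 3.35 in stimulated Ikzf1-cko. The genotypes did not overlap in either state. The log2 fold change was -1.85 ± 0.27 ex vivo (FDR 9.4e-06) and -0.98 ± 0.26 stimulated (FDR 0.0025), just short of the fold required of a call.

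Other large falls ex vivo were in 9530008L14Rik (log2 fold change -1.83), in Tshz1, a zinc finger gene (-1.73), and in Gabrb1, which encodes a GABA receptor subunit (-1.72). The Gabrb1 region, 203 kb from the nearest start site, had 19.4, 20.7 and 20.2 FPKM in WT ex vivo and 4.95, 5.6 and 8.07 in Ikzf1-cko ex vivo, and 11.3, 10.9 and 11.1 against 2.71, 5.75 and 3.41 after stimulation. Ikzf1-cko lay below WT in both states, and the stimulated difference of -1.49 ± 0.22 was called too (FDR 3e-06). Tshz1 was also called in both states, while 9530008L14Rik, at -0.55 ± 0.30 after stimulation (FDR 0.13), was called ex vivo and differed between states (interaction 1.28 ± 0.40, FDR 0.043).

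The second comparison was the same between genotypes after stimulation. Here 261 intronic regions (1.52%) were called higher and 3685 (21.5%) lower in Ikzf1-cko, against 1.16% and 20.2% of all tested regions. Above a mean of 3.6 CPM 232 were higher and 759 lower, 1.99% and 6.5% against 1.44% and 6.68%. With 3.6 CPM in all 12 libraries the direction of most calls turned, to 151 higher and 70 lower against 1.46% and 1.05% of all such regions. Of the 2503 regions that reached 3.6 CPM in stimulated WT alone, 2354 were among the lower calls. By level, the lower calls fell from 65.7% of the weakest quintile to 0.635% of the strongest, while the higher calls went from 0.471% to 4.8%. Loess normalization gave 549 higher and 564 lower.

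**Figure D2:**
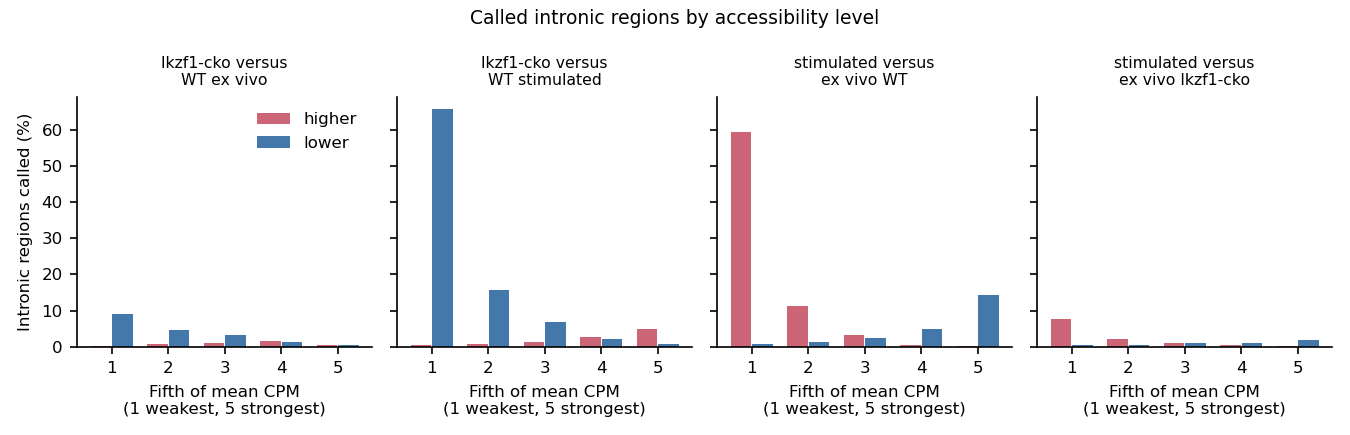
Percent of intronic regions called higher (red) or lower (blue) in each comparison by quintile of mean CPM, from the weakest regions (1) to the strongest (5). In stimulated Treg the lower calls of Ikzf1-cko make up 65.7% of the weakest quintile and 0.635% of the strongest, and in WT the higher calls with stimulation make up 59.5% and 0.282%.

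The largest rises in stimulated Ikzf1-cko Treg were in Galnt7 and Ly75, and both were strong regions. Galnt7 encodes an enzyme that adds sugars to mucin-type glycans. Its region at chr8:60067825-60068639 had 17.2, 11.2 and 10.1 FPKM in WT ex vivo, 33.2, 26.6 and 23.2 in Ikzf1-cko ex vivo, 8.32, 5.6 and 7.65 in stimulated WT and 22.8, 24.0 and 29.4 in stimulated Ikzf1-cko. Ikzf1-cko lay above WT in both states, with a log2 fold change of 1.82 ± 0.19 stimulated (FDR 3.6e-08) and 1.17 ± 0.16 ex vivo (FDR 3.2e-06).

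Ly75 encodes the endocytic receptor DEC-205. The region in its second intron (chr2:60208134-60209047) had 29.7, 25.1 and 25.8 FPKM in WT ex vivo, 55.6, 52.4 and 42.9 in Ikzf1-cko ex vivo, 13.8, 10.2 and 12.1 in stimulated WT and 37.4, 34.4 and 39.4 in stimulated Ikzf1-cko. The 4 groups did not overlap. The log2 fold change was 1.62 ± 0.13 stimulated (FDR 4.7e-10) and 0.92 ± 0.10 ex vivo (FDR 1.5e-07), and the WT region fell with stimulation by 1.14 on the log2 scale. Galnt9, another gene of the Galnt7 family, and Unc80, which encodes a subunit of a sodium leak channel, followed with 1.61 ± 0.15 and 1.60 ± 0.25 (FDR 2.4e-09 and 5.7e-06), and both regions also lay higher in Ikzf1-cko ex vivo, by 0.95 and 1.00, with no overlap between genotypes.

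The largest falls were weak regions in Arhgap28 (log2 fold change -2.41), Park2, which encodes the ubiquitin ligase parkin (-2.4), and the glutamate receptor genes Grid1 (-2.38) and Grin2a (-2.36). They had 8.0 to 19.2 FPKM in stimulated WT and 0.585 to 7.45 in every other library. These 4 regions were high in stimulated WT alone, without overlap, and each also rose with stimulation in WT, by 1.69 to 1.88. Of them, the Grid1 region reached 3.6 CPM in no library outside stimulated WT. The others reached it there in fewer than the 3 libraries that the filter requires. All 4 thus passed only through the group where they are high, so a difference from the other groups was largely set in advance. Their rises in WT rest on the same stimulated WT libraries.

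The 2 genotype comparisons share no library, but ex vivo and stimulated libraries of a genotype may share cells of 1 sort. Their calls are set side by side as a description. Among those with a mean of at least 3.6 CPM, 38 regions were called higher in both states, 30.4% of the 125 ex vivo and 16.4% of the 232 stimulated. The lower calls shared 122, or 39.6% of 308 and 16.1% of 759, and 0 regions were called in opposite directions. Across the 11682 regions the log2 fold changes of both comparisons had a Spearman correlation of 0.625, as a description across regions that share their depth and scaling. Over the 6701 regions with 3.6 CPM in all 12 libraries it was 0.583.

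**Figure D3:**
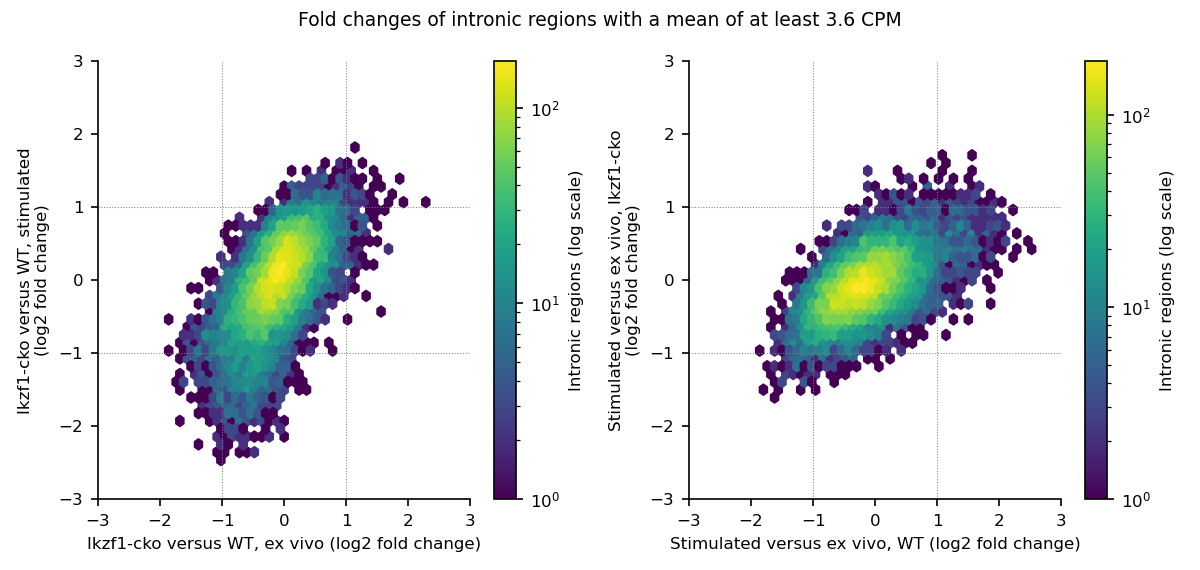
Log2 fold changes of the 11682 intronic regions with a mean of at least 3.6 CPM, genotype ex vivo against genotype after stimulation (left) and stimulation in WT against stimulation in Ikzf1-cko (right), with colour for the number of regions on a log scale and dotted lines at a fold of 2. The points follow a rising band in both panels, with Spearman coefficients of 0.625 and 0.544.

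The third comparison asked which intronic regions responded to 4 hr of stimulation in WT Treg. Of all intronic regions 3029 (17.6%) were called higher and 552 (3.21%) lower, against 17.7% and 2.32% of all tested regions. Above the same mean of 3.6 CPM 418 were higher and 509 lower, 3.58% and 4.36% against 4.69% and 2.95%. With 3.6 CPM in all 12 libraries almost every call was a fall, 13 higher and 360 lower against 0.438% and 3.18%. The 2503 regions that reached 3.6 CPM in stimulated WT alone held 2315 of the higher calls. The share of higher calls went from 59.5% of the weakest quintile to 0.282% of the strongest and that of lower calls from 0.72% to 14.3%. Loess normalization gave 385 higher and 664 lower.

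The largest rises with stimulation in WT were in Dpp6, which encodes a partner of potassium channels, the Hedgehog transcription factor gene Gli2, the semaphorin receptor gene Plxna2 and the calcium channel gene Cacna2d3. The Dpp6 region (chr5:27245307-27246050) had 2.33, 2.67 and 1.56 FPKM in WT ex vivo, 1.4, 1.47 and 3.68 in Ikzf1-cko ex vivo, 14.7, 7.37 and 14.5 in stimulated WT and 4.66, 1.64 and 2.46 in stimulated Ikzf1-cko. Stimulated WT lay above all other libraries. The log2 fold change was 2.49 ± 0.39 in WT (FDR 7.4e-06) and 0.44 ± 0.39 in Ikzf1-cko (FDR 0.42), and those of Gli2, Plxna2 and Cacna2d3 in WT were 2.41, 2.28 and 2.20. The Dpp6 and Gli2 regions reached 3.6 CPM in no library outside stimulated WT. The Plxna2 and Cacna2d3 regions reached it there in fewer than the 3 libraries that the filter requires. All of them passed the filter only through the group where they are high, so a difference from the other groups was largely set in advance.

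Falls in WT were found in Abcb1b (log2 fold change -1.85), a drug efflux pump gene, Btbd9 (-1.78), Rras2 (-1.73), which encodes a small GTPase of the Ras family, and Tank (-1.69), which encodes an adaptor in NF-kB signalling. The Rras2 region in intron 1 (chr7:121237048-121237663) had 53.1, 44.1 and 47.6 FPKM in WT ex vivo, 16.5, 13.0 and 14.6 in Ikzf1-cko ex vivo, 15.6, 15.1 and 12.5 in stimulated WT and 7.57, 5.78 and 6.8 in stimulated Ikzf1-cko. It was called lower in all pairwise comparisons: by genotype ex vivo (-1.70 ± 0.12, FDR 4.8e-11) and stimulated (-1.11 ± 0.19, FDR 1.8e-05), and by stimulation in WT (-1.73 ± 0.14, FDR 1.4e-10) and in Ikzf1-cko (-1.13 ± 0.16, FDR 3.8e-06). Ikzf1-cko ex vivo thus stood near stimulated WT, and these 2 groups overlapped. The central 300 bases of the Btbd9 region had 2 near-identical other places in the genome, and those of the Tank region matched 7162 other places over at least 100 bases, so their reads may belong elsewhere.

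In Ikzf1-cko Treg fewer intronic regions were called with stimulation. Of all, 458 (2.67%) were called higher and 146 (0.85%) lower, against 3.02% and 0.632% of all tested regions. With a mean of at least 3.6 CPM the calls were 106 higher and 117 lower, 0.907% and 1.0% against 1.03% and 0.706%, and with 3.6 CPM in all 12 libraries 16 higher and 66 lower against 0.242% and 0.563%. Leaving out replicate 3 of Ikzf1-cko ex vivo gave 1602 calls (1418 higher), without stimulated Ikzf1-cko replicate 1 it was 394, and with the stimulated WT libraries left out of the filter and the fit it was 256 of 12657, 114 higher and 142 lower. The split was 374 and 209 after TMM normalization and 147 and 218 after loess normalization.

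The largest rises in Ikzf1-cko were in Adam19, a membrane protease gene (log2 fold change 1.74), Il1rapl1 (1.66), Bre (1.64), which encodes a subunit of a BRCA1 complex, and Mob3b (1.56). The Adam19 region had 9.36, 6.74 and 4.38 FPKM in WT ex vivo, 4.9, 4.02 and 3.78 in Ikzf1-cko ex vivo, 16.5, 23.8 and 17.5 in stimulated WT and 15.1, 13.1 and 14.9 in stimulated Ikzf1-cko, so it rose in both genotypes (WT 1.56 ± 0.24, FDR 6.5e-06). All stimulated libraries lay above all ex vivo libraries. The Il1rapl1 window matched 2949 other places over at least 100 bases.

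The largest fall was shared by both genotypes. It lay in intron 3 of Ski (chr4:154542723-154543622), which encodes a repressor of TGF-beta signalling, and had 33.1, 36.2 and 38.6 FPKM in WT ex vivo, 34.7, 32.4 and 36.3 in Ikzf1-cko ex vivo, 12.3, 13.8 and 9.47 in stimulated WT and 9.64, 11.8 and 12.3 in stimulated Ikzf1-cko. The states did not overlap and the genotypes did. The log2 fold change was -1.61 ± 0.11 in Ikzf1-cko (FDR 1.3e-11) and -1.60 ± 0.13 in WT (FDR 1.5e-10), and the genotypes differed by -0.07 ± 0.10 ex vivo and -0.08 ± 0.15 stimulated. Vgll4, a cofactor gene of TEAD factors, was alike with -1.49 and -1.54, and falls in Btbd9 (-1.49) and in Lmnb1, the lamin B1 gene (-1.53), were called in both genotypes as well.

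**Figure D4:**
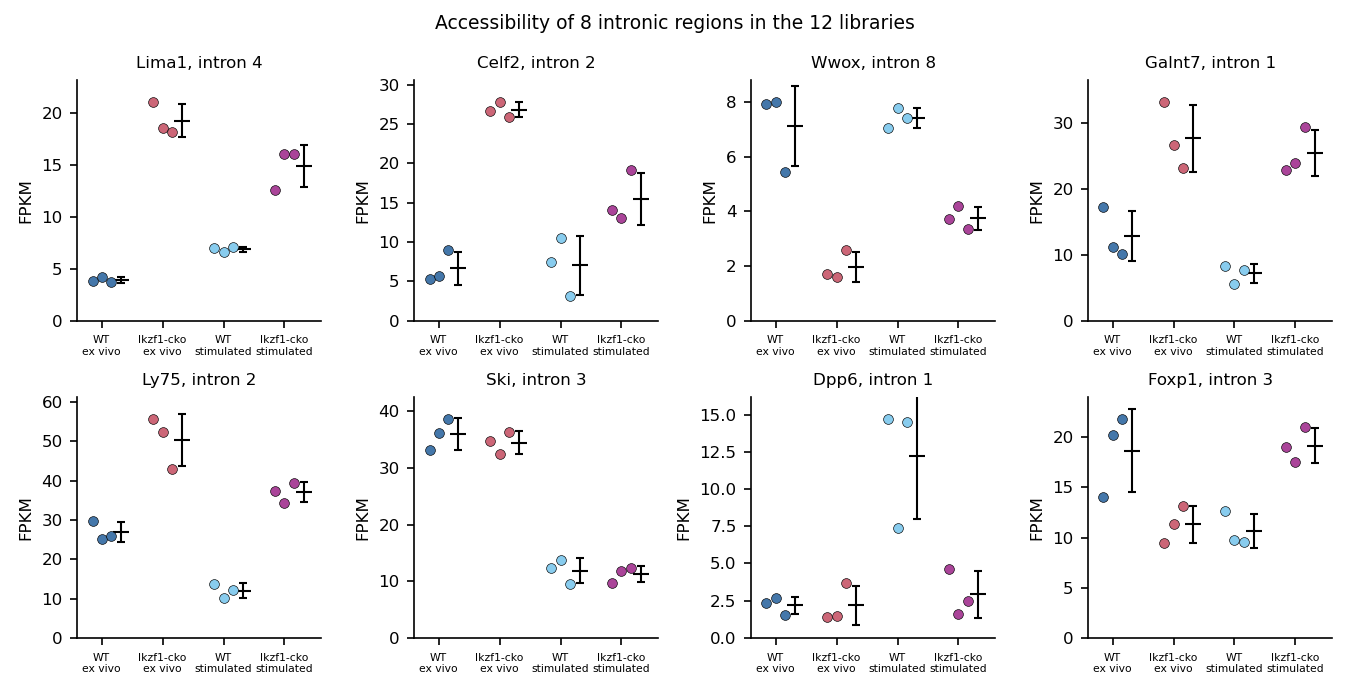
FPKM of 8 intronic regions in each of the 12 libraries, with bars for the mean ± SD of 3 libraries per group. The Lima1, Celf2, Galnt7 and Ly75 regions are higher and the Wwox region is lower in Ikzf1-cko in both states, Ski falls with stimulation in both genotypes, Dpp6 is high in stimulated WT, and Foxp1 falls with stimulation in WT and is higher after it in Ikzf1-cko.

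The responses to stimulation in WT and Ikzf1-cko share no library either. With a mean of at least 3.6 CPM, 45 regions rose in both, 10.8% of the 418 in WT and 42.5% of the 106 in Ikzf1-cko. Falls shared 68, or 13.4% of 509 and 58.1% of 117, and 0 were opposite. The log2 fold changes had a Spearman correlation of 0.544 over the 11682 regions and of 0.541 over the 6701 with 3.6 CPM in all 12 libraries.

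Whether the genotype effect differed between states was tested by the interaction, the genotype difference after stimulation minus that ex vivo. It was called higher for 134 intronic regions (0.78%) and lower for 259 (1.51%), against 0.579% and 1.4% of all tested regions. With a mean of at least 3.6 CPM the counts were 128 and 140, or 1.1% and 1.2% against 0.743% and 1.18%. With 3.6 CPM in all 12 libraries the direction of most calls turned, to 74 higher and 21 lower, against 0.633% and 0.271% of all such regions. TMM normalization gave 87 and 337, loess normalization 137 and 118, and DESeq2 called 61 and 11. These counts were unstable: leaving out 1 library gave 156 to 970 calls, and the count moved by over 1.5 times without WT ex vivo replicate 3 (167), Ikzf1-cko ex vivo replicates 1 (970) or 3 (174), stimulated WT replicates 1 (156) or 3 (241), or stimulated Ikzf1-cko replicates 1 (654), 2 (244) or 3 (158).

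Among the largest positive interactions were regions of Cd226, an activating receptor gene (1.67), Cnst (1.65) and Foxp1, which encodes a forkhead factor of naive and quiescent T cells (1.61). The Foxp1 region in intron 3 (chr6:99050597-99050858) had 14.0, 20.2 and 21.8 FPKM in WT ex vivo, 9.45, 11.4 and 13.1 in Ikzf1-cko ex vivo, 12.6, 9.76 and 9.52 in stimulated WT and 19, 17.5 and 21.0 in stimulated Ikzf1-cko. Ikzf1-cko lay below WT ex vivo and above it after stimulation, without overlap in either state (interaction FDR 0.0028). The Cnst region had 11.8, 6.67 and 9.93 FPKM in WT ex vivo, 4.28, 4.93 and 5.99 in Ikzf1-cko ex vivo, 8.32, 8.0 and 9.1 in stimulated WT and 13.1, 15.6 and 14.5 in stimulated Ikzf1-cko, with the same turn of order (FDR 0.0018). The largest negative interactions were in Grin2b (-2.18), a glutamate receptor gene, Dpp6 (-2.04) and Dock1 (-2.02), an exchange factor gene for Rac. The call in Dpp6 (FDR 0.021) was lost under limma and loess normalization and without any of 6 libraries (FDR 0.06 to 0.088). The Grin2b and Dpp6 regions were high in stimulated WT alone, while the Dock1 region was lowest in WT ex vivo, at 2.62 to 5.67 FPKM, and had 5.38 to 14.4 elsewhere. The Dpp6 region reached 3.6 CPM in stimulated WT alone, and the Grin2b region reached it in fewer than 3 libraries outside that group. Both regions passed the filter only through stimulated WT.

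Reads on regions that hold the AP-1 motif TGACTCA differed between groups. Regions that hold it took 11.9%, 11.7% and 12.2% of the reads on intronic regions in WT ex vivo, 13.3%, 13.3% and 12.2% in Ikzf1-cko ex vivo, 10.2%, 10.6% and 10.5% in stimulated WT and 12.9%, 12.7% and 13.0% in stimulated Ikzf1-cko. Stimulated WT was lowest and did not overlap any other group. Over the regions with 3.6 CPM in all 12 libraries the means were 12.4%, 13.3%, 11.7% and 13.4%, in the same order of groups. Intergenic regions gave 10.6%, 11.4%, 8.47% and 11.0%, with stimulated WT lowest as well.

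Called sets differed in how often they held the motif. Among the regions with a mean of at least 3.6 CPM, 11.6% held it. Of those higher in stimulated Ikzf1-cko 28.4% of 232 held it, and 4.87% of the 759 lower. Of those higher in Ikzf1-cko ex vivo 21.6% of 125 held it, and 9.74% of the 308 lower. With stimulation in WT it was in 5.5% of the 418 higher and 17.9% of the 509 lower, whereas in Ikzf1-cko the shares were 13.2% of 106 and 12% of 117. Positive interactions held it in 30.5% of 128. Intergenic regions had 32% of 256 higher and 2.74% lower in stimulated Ikzf1-cko, with the same order of directions as in introns. After loess normalization it was in 25.6% of 262 higher and 5.49% of 492 lower. The median log2 fold change between stimulated genotypes was 0.27 for the 1359 regions with the motif and 0.01 for the 10323 without. These sets still hold regions that reached 3.6 CPM in stimulated WT alone. With 3.6 CPM in all 12 libraries the calls of stimulated Ikzf1-cko were 151 higher and 70 lower, and motif shares are not given for them.

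**Figure D5:**
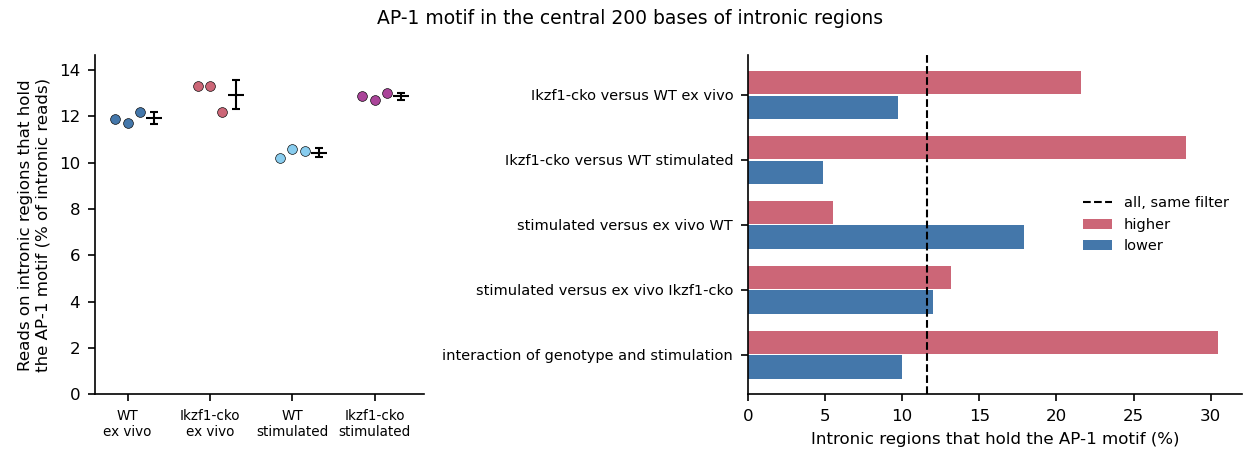
Left, percent of the reads on intronic regions that fell on regions holding TGACTCA in each library, with bars for the mean ± SD of 3 libraries. Right, percent of called intronic regions with a mean of at least 3.6 CPM that hold it in each comparison and direction, where the dashed line marks 11.6%, the share among all such regions, and the higher calls of stimulated Ikzf1-cko reach 28.4%.

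Other motifs were counted in the same sets. The NF-kB motif GGANTTTCC was in 1.55% of the regions with a mean of at least 3.6 CPM, in 5.6% of those higher and 0.649% of those lower in Ikzf1-cko ex vivo (7 of 125 and 2 of 308 regions), and in 3.88% and 1.05% after stimulation. Reads on regions that hold it made up 1.47% to 1.53% of intronic reads in WT ex vivo and 1.75% to 1.8% in Ikzf1-cko ex vivo, and 1.39% to 1.5% against 1.71% to 1.79% after stimulation, and the genotypes did not overlap in either state. The Ikaros core GGGAA was in 46.4% of the regions higher and 32.1% of those lower ex vivo, against 43.3% of all, and in 40.5% and 43.9% after stimulation. Among intergenic regions it was in 60.6% and 43.2% ex vivo. CAGGAAG was in 22.4% of the regions lower ex vivo against 18.4% of all, and Tcf/Lef letters in 17.2% of the positive interactions against 9.47%. Those shares are descriptions, and no factor was measured.

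The share of regions called varied with distance. Among regions with a mean of at least 3.6 CPM, 3.43% of the 5564 at 5 to 20 kb from a start site were lower in stimulated Ikzf1-cko, 6.46% of the 5033 at 20 to 100 kb and 22.4% of the 1085 beyond 100 kb. Higher calls with stimulation in WT were 1.92%, 3.54% and 12.3% of the same groups. Their median levels were 11.0, 10.2 and 8.94 FPKM, so distance and level moved together, and their parts were not separated. First introns had 4.74% lower calls in stimulated Ikzf1-cko and later introns 7.35%. All these shares are over the mean filter, which keeps some regions that reached 3.6 CPM in stimulated WT alone. The part of those regions in the shares was not tested.

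Genes with several calls were counted by direction. Ex vivo, 19 genes held at least 3 called regions with a mean of at least 3.6 CPM, all higher in 4, all lower in 11 and mixed in 4. Celf2 (5 higher of 18) and the lipid raft gene Rftn1 (3 of 12) were among the first, and Macrod2 (5 lower of 9) and Chst11, a sulfotransferase gene (4 of 12), among the second. After stimulation 81 genes had at least 3 by genotype, 7 all higher, 72 all lower and 2 mixed, led by Magi2 with 12 lower of 17 and Dock1 with 10 of 12. With stimulation in WT 72 genes had at least 3, 31 all higher, 38 all lower and 3 mixed. Bach2, which encodes a repressor that maintains naive and regulatory T cells, had 9 lower of 39, the nuclear receptor cofactor gene Nrip1 9 of 22, the inositol kinase gene Itpkb 8 of 23 and Cblb 7 of its 26 regions above that mean, while Dock1 had 11 higher of 12. In Ikzf1-cko Itpkb again had 8 lower and Ets1 had 4, and 11 genes reached 3 calls. Neighbouring regions share sequence environment, so these counts are no independent evidence. The mean filter also keeps some regions that reached 3.6 CPM in stimulated WT alone, and their part in these counts was not tested.

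Bach2 was also among the genes with most intronic regions. Its 45 regions, on chr4 between 32344658 and 32648432, summed to 635, 640 and 680 CPM in WT ex vivo, 640, 656 and 595 in Ikzf1-cko ex vivo, 355, 445 and 372 in stimulated WT and 399, 424 and 438 in stimulated Ikzf1-cko. All stimulated libraries lay below all ex vivo libraries, and the genotypes overlapped in both states. Fhit, Sox5, Ptprn2 and Eif4e3 had 58, 49, 45 and 43 regions. Ptprn2, a tyrosine phosphatase gene of secretory cells, had 33 of its 45 regions higher with stimulation in WT and 38 lower in stimulated Ikzf1-cko, but 13 of them had a mean of at least 3.6 CPM, of which 6 and 7 were called. The predicted gene Gm20388 holds 129 regions, which span 4390 kb.

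The region over the start site of the host gene was compared with the intronic regions. For 10194 intronic regions with a mean of at least 3.6 CPM in 3015 genes with a tested start region, the Spearman correlation of the log2 fold changes was 0.208 for genotype ex vivo, 0.425 for genotype stimulated, 0.265 for stimulation in WT and 0.106 in Ikzf1-cko, a description in which regions of 1 gene share a start region. Of 113 regions higher in Ikzf1-cko ex vivo, 2 had a start region called higher, and of 259 lower, 3 had one called lower. In stimulated Treg these were 1 of 212 and 226 of 608, and with stimulation in WT 116 of 320 and 5 of 475. Over all 13211 tested start regions, 0.288% were called higher and 0.855% lower by genotype ex vivo. The shares were 0.303% and 5.19% by genotype after stimulation and 4.6% and 0.341% with stimulation in WT. Start regions were called without the mean filter. Some may have passed through stimulated WT alone, and the part of that in these counts was not tested.

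Gene lists describe which T cell genes held such regions. Their members were chosen with earlier results of these data known, and each list is given by its counts. Beside the calls, regions are counted that passed the FDR alone, without the fold threshold, which 8.78% of all tested regions did in the higher and 12.7% in the lower direction ex vivo, 20.4% and 30.7% for genotype after stimulation, 26.9% and 20.7% with stimulation in WT and 12% and 11.5% in Ikzf1-cko. Among all intronic regions these were 1324 and 2484, 2740 and 5406, 4077 and 3536, and 1352 and 2179. The log2 fold changes of all 69957 regions had a median of -0.13 ex vivo (-0.02 after TMM and -0.03 after loess normalization), -0.11 for genotype after stimulation, 0.04 with stimulation in WT and 0.06 in Ikzf1-cko. The medians of the 7 lists lay between -0.02 and 0.2 ex vivo and between 0.06 and 0.21 for genotype after stimulation. With stimulation they lay between -0.39 and -0.13 in WT and between -0.3 and -0.12 in Ikzf1-cko. In the same order, the intronic regions with a mean of at least 3.6 CPM had medians of -0.088, 0.04, -0.184 and -0.075. Those with 3.6 CPM in all 12 libraries had -0.03, 0.17, -0.3 and -0.12. Most regions of the lists are above that mean, so these are closer references than all regions. After loess normalization the ex vivo median of the T cell receptor list changed from -0.02 to 0.07, while the medians for genotype after stimulation were 0.13 to 0.3.

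Genes of Treg identity and suppression had 80 intronic regions in 13 of 27 genes. None was called by genotype ex vivo, where 10 passed the FDR alone in the higher direction and 9 in the lower. In stimulated Treg 2 were called higher and 0 lower in Ikzf1-cko, 23 and 0 by the FDR alone, and their median log2 fold change was 0.18, against -0.11 over all tested regions and 0.17 over the intronic regions with 3.6 CPM in all 12 libraries. Of the 80, 77 had a mean of at least 3.6 CPM, with the same calls. Both calls were in Ikzf2, the gene of the Ikaros relative Helios. Its region at chr1:69590538-69591221 had 42.8 ± 4.66 FPKM in WT ex vivo, 51.3 ± 2.93 in Ikzf1-cko ex vivo, 21.3 ± 1.5 in stimulated WT and 46.5 ± 4.35 in stimulated Ikzf1-cko, a log2 fold change of 1.13 ± 0.12 after stimulation (FDR 2.5e-08). With stimulation it fell in WT by 1.02 on the log2 scale, and the difference in Ikzf1-cko was -0.14 ± 0.09 (FDR 0.27).

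Regions of Icos, a costimulatory receptor gene, and Tigit, an inhibitory receptor gene, differed after stimulation by less than the fold required, that of Tigit by 0.91. Of the 3 Icos regions, 1 passed the FDR in each state, and the gene medians were 0.02 ex vivo and 0.38 after stimulation. That Icos region had 9.12 ± 0.723 FPKM in WT ex vivo, 15.8 ± 0.481 in Ikzf1-cko ex vivo, 6.81 ± 1.19 in stimulated WT and 13.0 ± 1.21 in stimulated Ikzf1-cko (log2 fold change 0.79 ± 0.15 and 0.96 ± 0.18, FDR 0.0003 and 7.1e-05). Genotypes did not overlap in either state. Nrp1, the neuropilin gene of thymus-derived Treg, went the other way ex vivo, with 6 of 9 regions lower by the FDR alone, and its region in intron 9 had 22.9 ± 1.65 against 14.4 ± 1.65 FPKM (-0.67 ± 0.12, FDR 0.00014). With stimulation in WT 0 regions of the list were called higher and 4 lower, 1 and 35 by the FDR alone, and in Ikzf1-cko 0 and 1, 3 and 19 by the FDR alone.

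T cell receptor signalling and costimulation genes had 201 regions in 21 of 28 genes, of which 2 were called higher and 5 lower ex vivo and 2 and 3 after stimulation, while 55 and 10 passed the FDR alone after stimulation. Ptpn22, a phosphatase gene that dampens receptor signalling, held a region with 12.4 ± 0.081 FPKM in WT ex vivo, 28.9 ± 2.9 in Ikzf1-cko ex vivo, 8.08 ± 1.91 in stimulated WT and 19.6 ± 2.25 in stimulated Ikzf1-cko (1.23 ± 0.13 and 1.26 ± 0.16, FDR 4.7e-08 and 4.4e-07). The region in Fyn, a kinase gene, rose ex vivo (1.22 ± 0.17, FDR 6e-06), and Fyn had 6 of 26 regions higher ex vivo and 11 stimulated by the FDR alone, with 0 lower. With stimulation in WT 4 regions of the list rose and 11 fell, 8 of the latter in Cblb, and in Ikzf1-cko 2 and 2. The direction of most genotype calls in this list turned under loess normalization, which gave 5 higher and 1 lower ex vivo and 7 and 1 after stimulation. Among the 162 regions with a mean of at least 3.6 CPM the calls were 2 and 0 ex vivo and 2 and 1 after stimulation.

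Activation-induced factors had 52 regions in 9 of 32 genes, with 3 higher and 0 lower ex vivo, 14 and 0 by the FDR alone, and 0 called after stimulation, where 12 and 1 passed the FDR alone. All 3 were in NFAT genes. The region of Nfatc1 in intron 2 had 6.74 ± 1.04 FPKM in WT ex vivo, 21.7 ± 2.04 in Ikzf1-cko ex vivo, 6.93 ± 0.48 in stimulated WT and 9.31 ± 0.539 in stimulated Ikzf1-cko. It was high in Ikzf1-cko ex vivo alone (1.68 ± 0.16, FDR 1.2e-08) and fell there with stimulation by 1.23. The region of Nfatc2 had 3.38 ± 0.813 against 8.76 ± 0.782 FPKM ex vivo (1.37 ± 0.27, FDR 0.00048) and rose with stimulation in WT to 7.65 ± 2.47. Stimulation gave 3 higher and 3 lower calls in WT and 0 and 4 in Ikzf1-cko, of which 3 in each were falls in Nfkb1, an NF-kB subunit gene.

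Naive-state and quiescence factors had 217 regions in 17 of 24 genes. Ex vivo 3 were called higher and 7 lower, after stimulation 2 and 6, with stimulation in WT 0 and 16 and in Ikzf1-cko 0 and 11. Under loess normalization the genotype calls turned to 5 higher and 1 lower ex vivo and 6 and 0 after stimulation, while those with stimulation were 0 and 16 in WT and 0 and 11 in Ikzf1-cko again. Among the 182 regions with a mean of at least 3.6 CPM the genotype calls were 3 and 3 ex vivo and 1 and 1 after stimulation. Lef1, a Wnt effector gene of naive T cells, had 3 of 16 regions lower ex vivo and 0 higher, 8 and 0 by the FDR alone, and the chromatin organizer gene Satb1 had 2 of 8 lower in both states. Runx2 went the other way with 2 of 18 higher in both. Its region in intron 2 had 22.3 ± 0.806, 34.6 ± 5.13, 13.9 ± 2.26 and 29.0 ± 2.51 FPKM in WT ex vivo, Ikzf1-cko ex vivo, stimulated WT and stimulated Ikzf1-cko, and the difference of 1.07 ± 0.14 after stimulation was called (FDR 9.9e-07). By the FDR alone 94 of the regions fell and 4 rose with stimulation in WT, and 87 and 5 in Ikzf1-cko, with 17 and 23 of the falls among the 32 regions of Ets1.

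Helper lineage genes had 72 regions in 14 of 28 genes, with 3 higher and 1 lower ex vivo, 2 and 2 after stimulation, 0 and 3 with stimulation in WT and 0 and 5 in Ikzf1-cko. Regions of Stat4 and Il18rap, genes of the responses to interleukin 12 and interleukin 18, rose ex vivo, by 1.29 and 1.02. Of the receptor genes of the same responses, Il12rb2 had 1 of 4 regions called lower ex vivo, with a median of -0.53, and Il18r1 had 0 of 4 called, with a median of -0.27.

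Wnt, catenin and Notch genes had 70 regions in 18 of 25 genes, with 3 higher and 0 lower ex vivo, 3 and 1 after stimulation, 0 and 2 with stimulation in WT and 0 in Ikzf1-cko, where 1 and 12 passed the FDR alone. The region of Maml2, which encodes a coactivator of Notch, had 18 ± 2.9, 34.8 ± 5.61, 16.3 ± 2.25 and 39.1 ± 0.813 FPKM in WT ex vivo, Ikzf1-cko ex vivo, stimulated WT and stimulated Ikzf1-cko, and its difference after stimulation was called (1.27 ± 0.14, FDR 7.1e-08). A region of the related Maml3 was called in both states (1.11 and 1.05), and one of Rbpj, which encodes the DNA-binding partner of Notch, ex vivo (1.14 ± 0.21, FDR 0.00025). These regions were higher in Ikzf1-cko. Another region of Maml3 was the lower call after stimulation, and by the FDR alone 12 regions of the list were higher and 7 lower ex vivo, among the latter both regions of Lrp5, a Wnt coreceptor gene.

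The Ikaros family had 58 regions, in Ikzf1, Ikzf2 and Ikzf3, of 5 genes. By genotype 1 was called higher and 1 lower ex vivo and 3 and 0 after stimulation, and by stimulation 0 and 6 in WT and 1 and 1 in Ikzf1-cko. Ikzf2 is counted here and among the Treg genes. Ikzf1 itself held 18 regions, 13 of them in intron 3, and the lowest count of any in an Ikzf1-cko library was 15 reads (2.07 FPKM), so none was absent. They lie in introns and check nothing about the deletion. The region at chr11:11610032-11610681 had 6.22, 3.26 and 4.83 FPKM in WT ex vivo, 9.22, 9.5 and 9.73 in Ikzf1-cko ex vivo, 6.36, 7.03 and 4.16 in stimulated WT and 15.2, 13.8 and 15.4 in stimulated Ikzf1-cko. It was higher in Ikzf1-cko in both states without overlap (1.03 ± 0.21 and 1.32 ± 0.20, FDR 0.00062 and 6.5e-06). Another, in intron 5, was lower ex vivo, at 7.63 ± 1.03 against 3.09 ± 0.954 FPKM (log2 fold change -1.27, FDR 0.0014).

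The share of calls can be set beside that of other positions. With a mean of at least 3.6 CPM, 6.5% of the intronic regions, 11.2% of the intergenic regions and 3.49% of those over a start site were lower in stimulated Ikzf1-cko, and 1.99%, 1.63% and 0.315% were higher. Falls with stimulation in WT were 4.36%, 3.02% and 0.347%. The differences between these classes were not tested, and the classes differ in level and in distance from start sites.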

How the data were processed

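ATAC-seq libraries were made from 12 samples, 3 in each of 4 groups, and all were mapped to a group by their labels. According to the methods, the authors ran the ATAC-seq pipeline of ENCODE: alignment by Bowtie2, removal of duplicates and peak calling per replicate by MACS2. They then took out blacklisted places, merged the peaks seen in at least 2 replicates and counted reads on them with csaw. The submitters' processing notes name bcl2fastq, Bowtie2 and MACS2. The labels give the build mm9, whereas the methods print a human build. Values were deposited by the authors as counts per region and library, without normalization, and as FPKM, which equals the count per kilobase of region per 1e+06 counted reads to within 1e-09. A deposited table of the authors' own comparisons (fold changes and adjusted p-values) was not used, and their normalization on background bins was not repeated.

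Positions were assigned from GENCODE vM1 on NCBIM37 (mm9). The test was run with edgeR 4.0.16 (R 4.3.3) by quasi-likelihood on the regions that reached 3.6 CPM in 3 libraries or more, on the deposited counts, scaled by library totals, with 4 group means and Benjamini-Hochberg adjustment over all 69957 regions. Of 200 regions changed by 2 on the log2 scale in data simulated for the ex vivo comparison over 69957 regions, 196 were recovered, with 4 false calls. All other simulated regions had the same mean in every group, without the shift between weak and strong regions seen here. The false calls therefore do not measure errors from that shift. Shares of reads were compared by exact permutation of genotype within states, or of state within genotypes, with SciPy 1.17.1. Copies of named regions were sought with blastn 2.17.0, and tables were handled with Python 3.11.15, pandas 2.3.3 and NumPy 2.4.6. Alternatives were TMM, loess, DESeq2 1.42.0, limma 3.58.1 on log2(FPKM + 1), other filters, thresholds and distances, a replicate block and leaving out each library. The fit without stimulated WT was chosen after seeing the data.

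The regions, gene lists and tests were chosen with earlier results of these data known. Named regions are, among called regions with a mean of at least 3.6 CPM whose groups did not overlap, the 4 largest rises and 4 largest falls of each pairwise comparison and the 3 largest each way for the interaction. Added to them are the 10 highest by mean FPKM, the 6 genes with most regions, the 3 least variable regions of the top 10% by level, and the region of smallest p for each gene of a list. A few regions that this rule names are not reported here.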

Additional observations from a re-analysis of the deposited data

Results flagged for a closer look

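In 6 named regions the effect of genotype differed between ex vivo and stimulated Treg by the interaction test of edgeR (Benjamini-Hochberg adjustment over all tested regions). The interaction is the log2 fold change of Ikzf1-cko against WT after stimulation minus that ex vivo. It was 1.67 in Cd226 (FDR 0.00089), 1.65 in Cnst (FDR 0.0018) and 1.61 in Foxp1 (FDR 0.0028). It was -2.18 in Grin2b (FDR 0.0028), -2.04 in Dpp6 (FDR 0.021) and -2.02 in Dock1 (FDR 0.0019). The Dpp6 call was lost in 8 of the alternatives, with an FDR of 0.06 to 0.088. Its region reached 3.6 CPM in stimulated WT alone, so it passed the filter through the group where it is high. The Grin2b region reached 3.6 CPM in fewer than 3 libraries outside stimulated WT, so it also passed only through that group.

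The Cd226 region had 35.5, 36 and 31.0 FPKM in WT ex vivo, 18.7, 15.7 and 17.1 in Ikzf1-cko ex vivo, 12.7, 13.1 and 17.1 in stimulated WT and 23.4, 21.9 and 23.3 in stimulated Ikzf1-cko. Ikzf1-cko was below WT ex vivo and above it after stimulation, with no overlap in either state. The Grin2b region had 12.7, 13.3 and 11.4 FPKM in stimulated WT and at most 5.57 in every other library. Stimulated WT was the group with the largest share of reads outside the tested regions, and the part of that in the Grin2b and Dpp6 values was not tested. DESeq2 gave no adjusted p for these 6 regions.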

How the results depend on the processing

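In the order ex vivo genotype, stimulated genotype, stimulation in WT and stimulation in Ikzf1-cko, the 898, 3946, 3581 and 604 calls became 515, 1113, 1049 and 365 after loess normalization, 433, 991, 927 and 223 with a mean of at least 3.6 CPM, 107, 221, 372 and 82 with 3.6 CPM in all 12 libraries, 2093, 9284, 8650 and 1917 without a filter, and 3808, 8146, 7613 and 3531 by the FDR alone. TMM gave 731, 3838, 3607 and 583, and DESeq2 712, 3833, 3609 and 542. For the ex vivo genotype and for stimulation in Ikzf1-cko, limma gave 511 and 284, regions over 20 kb from a start site 588 and 402, and the fit without stimulated WT, chosen after seeing the data, 511 and 256. The 393 interactions became 255 after loess normalization, 98 with 3.6 CPM in all 12 libraries, 72 in DESeq2 and 1183 by the FDR alone. The genotype difference in the share of reads, -0.411 percentage points, was 0.363 with a mean of at least 3.6 CPM and 0.719 with 3.6 CPM in all 12 libraries, and the stimulation difference, -1.09, was -0.104 without a filter. The cause of these changes was not tested.

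Leaving out 1 library gave 617 to 2314 ex vivo genotype calls, 3600 to 4265 after stimulation, 3004 to 3902 with stimulation in WT, 394 to 1602 in Ikzf1-cko and 156 to 970 interactions, and differences in the share of reads of -0.488 to -0.327 and -1.17 to -1.01. With a replicate block the counts were 852, 3936, 3557, 549 and 326. Deviations of same-numbered libraries correlated by -0.376 to 0.293, so the numbers were not taken to pair the libraries, although the methods divide sorted cells between the states and a shared sort was not modelled otherwise. Of 640 alternative values of the 38 named comparisons, 632 stayed on the same side of the threshold, 8 of the Dpp6 interaction lost it and 0 changed sign. The named regions were picked from the same data as the largest called changes, so this outcome was largely set in advance. Other filters were not among these alternatives. Depth limits weak regions: an intronic region had a median of 26 to 68 reads per library, and 68 to 1025 regions had under 10 reads.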
